A study of Drosophila melanogaster with 6 samples.

Results

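The genes described here encode the secreted digestive enzymes of the fly gut, in 3 families: 16 Jonah proteases, 10 trypsins and 12 carbohydrate enzymes (amylases and maltases). They were chosen by name as families of the digestive tract. Of the 38 genes listed, 33 had a probe set that the platform annotation pairs with that gene alone, out of 13966 probe sets on the array that are not controls. These were 14 Jonah proteases, 8 trypsins and 11 carbohydrate enzymes, each with 1 probe set. The other 5 genes, Jon99Cii, Jon99Ciii, gammaTry, deltaTry and Amy-p, had no probe set of their own and are not analysed here in this way.

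RNA came from the whole bodies of Canton-S males, a wild-type laboratory strain of Drosophila melanogaster, at 4 days of age. Exposed males had each been placed with a virgin female for 5 min, and only males that courted robustly and did not mate were kept (3 pools, exposed 1 to 3). Unexposed males were virgin males of the same strain and age that were mock aspirated and met no female (3 pools, unexposed 1 to 3). Each pool held about 12 males and was hybridized to 1 Affymetrix Drosophila Genome array (version 1). The choice of strong courters applied to exposed males alone, so exposure and this choice cannot be told apart. Groups of both kinds were collected in parallel, and pools with the same number were compared as pairs. No source used here ties the numbers to collections, and the signals of replicates 2 and 3 gave no sign of such a tie.

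Digestive enzymes are made by enterocytes of the midgut and secreted into the lumen. Jonah proteases and trypsins are serine proteases: trypsins cut proteins after lysine or arginine, and the Jonah genes encode a fly family of chymotrypsin-like and related enzymes. Amylases break starch down to maltose and short glucose chains, and maltases (alpha-glucosidases) release glucose from these. The families lie in tandem clusters of duplicated genes. In the RefSeq gene table of Release 6, all 10 trypsin genes lie in a single cluster on chromosome arm 2R with 4 other genes between them (among them the related kappaTry), and the 7 listed Mal-A genes lie side by side on 2R with only Mal-A5 between them. Jon25Bi, Jon25Bii and Jon25Biii are direct neighbours on 2L, the 4 Jon65A genes on 3L, Jon66Ci and Jon66Cii on 3L, Jon99Fi and Jon99Fii on 3R, and Mal-B1 and Mal-B2 on 2L. Close copies can share hybridization. The signals of alphaTry and betaTry, which have near-identical copies beside them, of Amy-d, the duplicate of Amy-p, and of Jon99Fii, whose probe set carries the suffix that Affymetrix gave to sets common to a gene family, are therefore uncertain as measures of a single gene.

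Each array gives a single brightness value (the signal, a linear intensity) for each probe set, as deposited by the authors. Probes differ in brightness for reasons other than the amount of RNA, so signals are compared between arrays and not between genes. Array medians were 107 to 133. The 2 arrays of replicate 1 stood apart from the other 4: log2 signals correlated at 0.91 between exposed 1 and unexposed 1 and at 0.59 to 0.679 between a replicate 1 array and any of the other 4, which correlated at 0.972 to 0.985 with each other. The paper places labeling and hybridization at a facility of the University of Kentucky or of Texas A&M University. It does not say which arrays each facility processed, so the part of the facility cannot be told. The ratio of 3′ to 5′ signal of the actin control transcript, a sign of how complete the RNA is, was 17.8, 2.26 and 2.19 on exposed 1 to 3 and 5.79, 2.36 and 2.27 on unexposed 1 to 3. Bacterial, yeast and mouse control probe sets, which have no target in flies, had medians of 80.1, 31.3 and 25.3 on exposed 1 to 3 and of 81, 22.9 and 27.2 on unexposed 1 to 3. The part of these differences in the results below was not tested, and pair 1 is therefore given apart for most genes named.

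None of the digestive enzyme genes passed the test of exposed against unexposed males. The test was limma on log2 signals (signals under 1 set to 1) with the pair as a block, over the 8251 probe sets that reached a signal of 100 on 3 or more of the 6 arrays. This filter left 29 of the 33 genes: 11 Jonah proteases, 8 trypsins and 10 carbohydrate enzymes. At an adjusted p under 0.05 limma called 0 of the 29, and 0 of all probe sets. At an unadjusted p under 0.05 it called 0 of the 29 in either direction, against 2.12% of all probe sets tested that were lower and 0.376% that were higher in exposed males. At an unadjusted p under 0.001, the threshold of the study, it called 0 of the 29, against 0.0242% of all probe sets that were lower and 0% that were higher. The smallest unadjusted p among the 29 was 0.0603, that of Jon65Ai. Standard errors of the log2 ratio lay between 0.12 and 0.29, and the 95% interval of 27 of the 29 genes stayed within a 2-fold change either way. The exceptions were Jon65Ai and Mal-B2.

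The mean log2 ratio of exposed over unexposed was below 0 for 23 of the 29 genes. Over all probe sets tested it was below 0 for 70.5%, so this share (79.3%) was not far from that of the arrays at large. With each array centred on its median, the count became 12 of 29 and the share over all probe sets 41.6%, and with quantile normalization 18 of 29 and 48.9%. The sign of a small ratio thus depended on the scaling. Without replicate 1, 27 of the 29 were below 0, against 55% over all probe sets. The exposed signal was the higher in all 3 pairs for 0 of the 29, against 6.23% of all probe sets, and every exposed array lay above every unexposed array for 0 of the 29, against 0.255%. In whole bodies, fewer gut cells and less RNA per gut cell cannot be told apart.

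**Figure D1:**
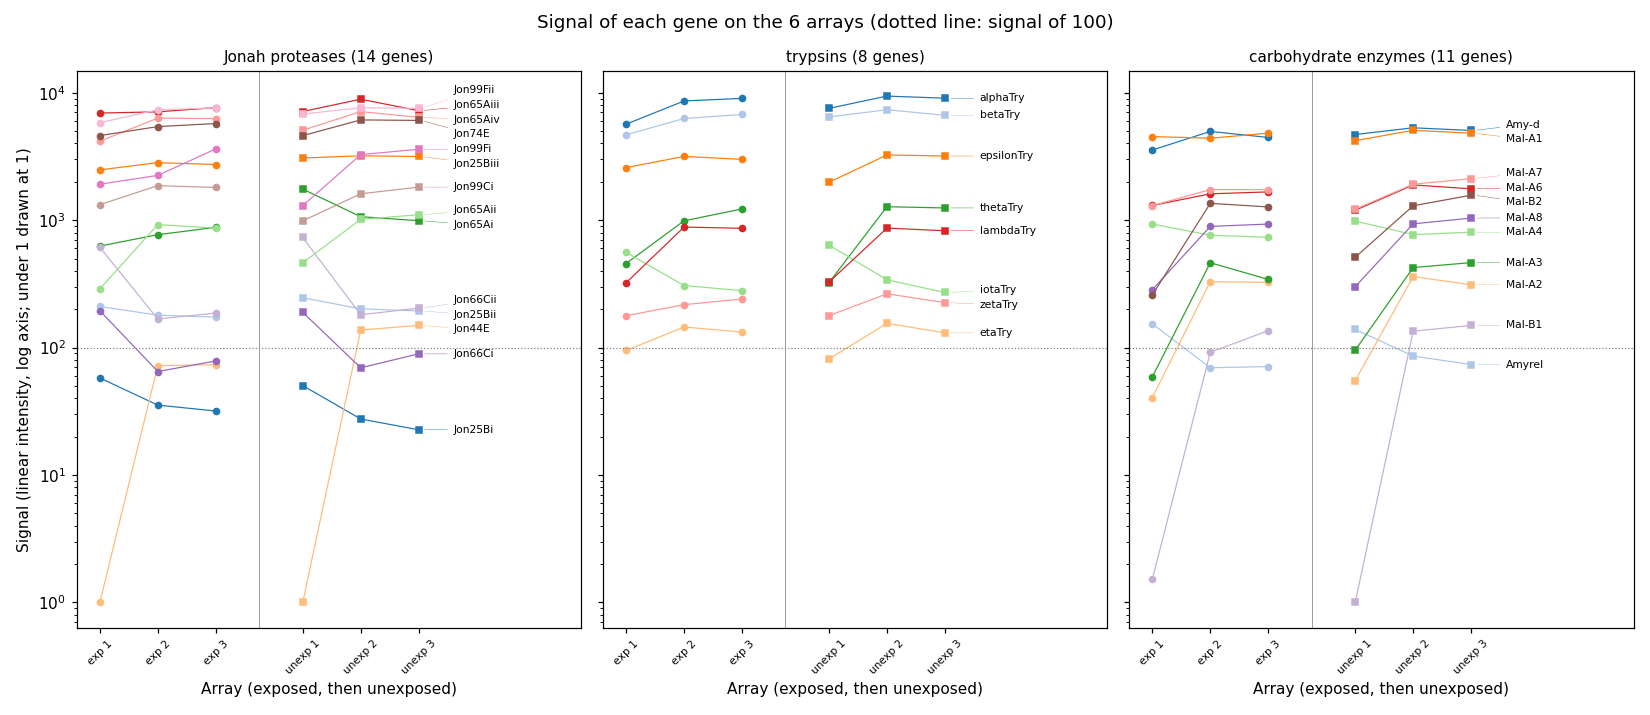
Signal of each of the 33 genes (linear intensity on a log axis, values under 1 drawn at 1) on the 3 exposed arrays (circles) and the 3 unexposed arrays (squares), with 1 panel per family and the dotted line at a signal of 100. Lines only join the points of a gene. The exposed and unexposed sides of each panel look alike, and in both the replicate 1 array differs from the other 2 for many genes, as for Jon66Cii, thetaTry and Mal-A2.

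Of the Jonah proteases, 9 of 11 (81.8%) had a mean log2 ratio below 0, against 70.5% of all probe sets. The family median was -0.16, against -0.09. By pair, the median was -0.23 in pair 1, -0.17 in pair 2 and -0.08 in pair 3, where all probe sets tested had medians of -0.21, -0.08 and 0.05. Exposed males had the lower signal in all 3 pairs for 6 of the 11 genes (54.5%), against 18.4% of all probe sets. These 6 were Jon25Bii, Jon25Biii, Jon65Ai, Jon65Aii, Jon65Aiv and Jon66Cii. They are neighbours of each other in part and come from the same pools, so they are not independent counts, and the share was not tested.

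Jon65Ai had the ratio farthest from 0 of the family. The exposed pools gave signals of 626, 769 and 879, and the unexposed pools 1754, 1065 and 991. Every exposed pool lay below every unexposed pool, which held for 2 of the 29 genes and for 1.76% of all probe sets. The log2 ratio was -0.71 (standard error 0.29, 95% interval -1.47 to 0.05, adjusted p = 0.905 from limma). Most of this came from pair 1, at -1.49, against -0.47 and -0.17 in pairs 2 and 3. Without replicate 1 the log2 ratio was -0.32.

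Jon25Biii was the other gene whose groups did not overlap, with 2479, 2828 and 2732 in exposed males and 3071, 3200 and 3160 in unexposed males. The difference was small and alike in each pair, with log2 ratios of -0.31, -0.18 and -0.21 and a mean of -0.23. Its neighbour Jon25Bii had 210, 180 and 174 in exposed pools and 246, 202 and 194 in unexposed pools. Its ratios (-0.22, -0.17 and -0.16) were close to those of Jon25Biii, but exposed 1 lay above both unexposed 2 and unexposed 3. Jon65Aii, next to Jon65Ai, had 289, 924 and 866 in exposed pools and 463, 1015 and 1103 in unexposed pools. It was lower in the exposed pool of each pair (mean log2 ratio -0.39), while both replicate 1 arrays lay far below the other 4.

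The remaining genes of the 65A cluster differed less. Jon65Aiv had 4157, 6323 and 6263 in exposed pools and 5073, 7116 and 6403 in unexposed pools, a mean log2 ratio of -0.16. Jon65Aiii had 6925, 7080 and 7634 in exposed pools and 7121, 8895 and 7231 in unexposed pools, a mean of -0.10 with pair 3 in the other direction (0.08). The 4 neighbours thus had mean log2 ratios between -0.71 and -0.10.

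Jon74E, a single gene on 3L, had 4609, 5423 and 5732 in exposed pools and 4604, 6118 and 6063 in unexposed pools, so that pair 1 did not differ (log2 ratio 0.00) and the mean was -0.08. Jon99Fii had 5818, 7346 and 7609 in exposed pools and 6805, 7629 and 7542 in unexposed pools, and the 4 arrays of replicates 2 and 3 differed by at most 1.04-fold. Both genes showed no difference beyond the spread of their pairs.

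Jon99Ci and Jon99Fi, named here after their values were seen, were the only Jonah proteases of the 11 with a mean above 0. Jon99Ci had 1323, 1866 and 1805 in exposed pools and 988, 1611 and 1817 in unexposed pools (mean log2 ratio 0.21, adjusted p = 0.905 from limma). Jon99Fi had 1914, 2245 and 3621 in exposed pools and 1300, 3268 and 3600 in unexposed pools. Its pairs pointed in opposite directions (0.56, -0.54 and 0.01), which left a mean of 0.01 with a standard error of 0.24.

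A further 3 Jonah proteases were below the signal filter. Jon44E, singled out after its values were seen, had signals of 72.1 and 73.4 on exposed 2 and 3, against 137 and 149 on unexposed 2 and 3. On exposed 1 and unexposed 1 it was listed at 0. Its log2 ratios in pairs 2 and 3 were -0.93 and -1.03. With no filter, both ratios were at or below -0.93 in 60 of 13966 probe sets (0.43%). That limit was taken from Jon44E itself after it was singled out, so this share is not a test. Pair 1 gives no ratio, as both of its signals were 0. With no filter limma gave an adjusted p of 0.92, but that fit took pair 1 as a log2 ratio of 0. Jon66Ci had 195, 64.9 and 78.6 in exposed pools and 189, 69.4 and 89.3 in unexposed pools. Jon25Bi had 57.8, 35.4 and 31.8 in exposed pools and 50.3, 27.5 and 22.7 in unexposed pools. Its exposed signal was the higher of each pair by 0.20 to 0.49 on the log2 scale. Both signals of pair 1 lay below the median of the foreign control probe sets. So did unexposed 3, which belongs to the pair with the ratio of 0.49.

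**Figure D2:**
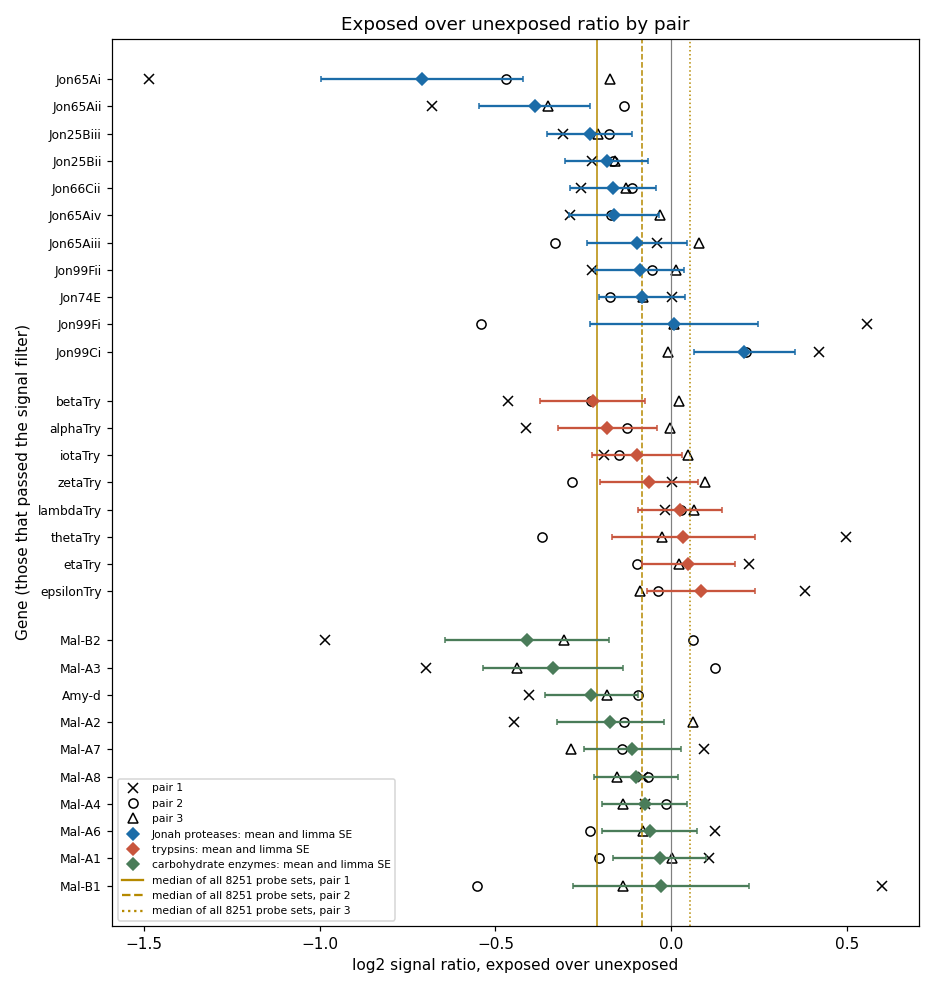
Log2 ratio of exposed over unexposed signal (x axis) for each of the 29 genes that passed the signal filter (rows), with pair 1 as crosses, pair 2 as circles, pair 3 as triangles, and the mean with its standard error from limma as coloured diamonds. Vertical lines mark 0 (grey) and the medians of all 8251 probe sets in pairs 1 to 3 (-0.21, -0.08 and 0.05). Most means lie between -0.4 and 0.2, with Jon65Ai at -0.71, and pair 1 is often the outlying symbol.

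Trypsins were split evenly about 0 in the mean of the 3 pairs, but this depended on replicate 1 and on the scaling. Without replicate 1, 7 of the 8 were below 0, against 55% of all probe sets. With arrays centred on their medians 2 of the 8 were below 0 (41.6% of all probe sets), and with quantile normalization 3 of the 8 (48.9%). By pair, the exposed signal was lower for 4, 7 and 3 of the 8 in pairs 1 to 3. Over all probe sets these shares were 74.4%, 63.2% and 40.1%. With all 3 pairs and the signals as deposited, 4 of the 8 genes had a mean log2 ratio below 0 and 4 above it. Their median was -0.02. Over all probe sets tested 70.5% were below 0, with a median of -0.09, so the trypsins lay above the arrays at large. All trypsin means lay between -0.22 and 0.08. In pairs 1 to 3 the family medians were -0.01, -0.14 and 0.02, and a single gene of the 8 (12.5%, against 18.4% of all probe sets), alphaTry, had its exposed signal below its unexposed signal in every pair.

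The digestive trypsin gene alphaTry had 5662, 8618 and 9028 in exposed pools and 7536, 9410 and 9056 in unexposed pools. Its mean log2 ratio was -0.18, from -0.41 in pair 1, -0.13 in pair 2 and 0.00 in pair 3. Its neighbour betaTry had 4673, 6279 and 6753 in exposed pools and 6452, 7355 and 6648 in unexposed pools. This was the trypsin farthest from 0 (log2 ratio -0.22, standard error 0.15, 95% interval -0.62 to 0.17, adjusted p = 0.905 from limma). In both genes exposed 1 was the lowest of the 6 arrays, and pair 3 showed no difference beyond 0.02 on the log2 scale.

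For epsilonTry, which lies between alphaTry and betaTry in the cluster, pair 1 went the other way. Its signals were 2582, 3164 and 2999 in exposed pools and 1984, 3248 and 3188 in unexposed pools, with ratios of 0.38, -0.04 and -0.09. The gene thetaTry had 457, 988 and 1224 in exposed pools and 323, 1275 and 1247 in unexposed pools, with ratios of 0.50, -0.37 and -0.03. Their means, 0.08 and 0.03, were smaller than their standard errors of 0.15 and 0.20.

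The gene iotaTry had 559, 307 and 280 in exposed pools and 638, 340 and 271 in unexposed pools, a mean log2 ratio of -0.10. It was the only trypsin that was brighter on both replicate 1 arrays than on the other 4. The other 3 genes, named after their values were seen, had means within 0.07 of 0. Of these, lambdaTry had 322, 883 and 863 in exposed pools and 326, 867 and 826 in unexposed pools, and its pairs differed by no more than 0.06. The signals of zetaTry were 178, 217 and 241 in exposed pools and 178, 264 and 225 in unexposed pools. Those of etaTry were 94.9, 145 and 132 in exposed pools and 81.5, 155 and 131 in unexposed pools. Exposed and unexposed signals overlapped for all 8 trypsins. Groups without overlap were rare over all probe sets (1.76% lower and 0.255% higher in exposed males).

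All 10 carbohydrate enzymes that passed the filter had a mean log2 ratio below 0, from -0.41 to -0.03 with a median of -0.11. Over all probe sets tested 70.5% were below 0, with a median of -0.09, so the family median was close to that of the arrays at large. With arrays centred on their medians 4 of the 10 were below 0 (41.6% of all probe sets), and with quantile normalization 7 of the 10 (48.9%). In pair 1 both signals of Mal-A2 and of Mal-B1 lay below the foreign control medians of their arrays, so their means are not well set. Without replicate 1 these means were -0.04 and -0.34. The family medians in pairs 1 to 3 were -0.08, -0.11 and -0.15. Exposed males had the lower signal in all 3 pairs for 3 genes (30%, against 18.4% of all probe sets), Amy-d, Mal-A4 and Mal-A8. Groups overlapped for all 10. Over all probe sets, every exposed array lay below every unexposed array for 1.76% and above for 0.255%.

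The amylase gene Amy-d had 3550, 4969 and 4456 in exposed pools and 4699, 5307 and 5055 in unexposed pools. Its mean log2 ratio was -0.23 (pairs -0.40, -0.10 and -0.18). Amyrel, a diverged relative of the amylases, was below the signal filter, with 154, 69.5 and 71.0 in exposed pools and 139, 85.8 and 73.6 in unexposed pools.

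Mal-B2, a maltase gene on 2L, had the ratio farthest from 0 in this family. Its signals were 258, 1355 and 1270 in exposed pools and 511, 1297 and 1570 in unexposed pools. The log2 ratio was -0.41 (standard error 0.23, 95% interval -1.03 to 0.21, adjusted p = 0.905 from limma), from -0.98 in pair 1, 0.06 in pair 2 and -0.31 in pair 3. Without replicate 1 it was -0.12. Its neighbour Mal-B1, named after its values were seen, was at 1.51 on exposed 1 and listed at 0 on unexposed 1, against 91.8 and 136 on exposed 2 and 3 and 135 and 149 on unexposed 2 and 3. Its ratio in pair 1 (0.60) is between values near 0, and those of pairs 2 and 3 were -0.55 and -0.14.

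Within the Mal-A cluster the genes differed little by exposure. Mal-A1 had 4527, 4397 and 4814 in exposed pools and 4203, 5074 and 4810 in unexposed pools, a mean log2 ratio of -0.03. Mal-A6 had 1303, 1610 and 1667 in exposed pools and 1195, 1890 and 1761 in unexposed pools (-0.06). Mal-A7 had 1299, 1737 and 1737 in exposed pools and 1219, 1915 and 2117 in unexposed pools (-0.11). Pairs 1 of these 3 genes were above 0 and pairs 2 below it.

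Mal-A3 had the lowest mean in the cluster, -0.34, with 58.8, 463 and 343 in exposed pools and 95.4, 425 and 464 in unexposed pools. Its pairs (-0.70, 0.12 and -0.44) did not point the same way, and both signals of pair 1 were close to the foreign control median of their arrays. The other 3 genes of the cluster, Mal-A2, Mal-A4 and Mal-A8, had means of -0.17, -0.08 and -0.10. Of these, Mal-A4 had 933, 762 and 733 in exposed pools and 982, 771 and 805 in unexposed pools. Mal-A8 had 284, 893 and 932 in exposed pools and 301, 936 and 1038 in unexposed pools, so that exposed pools were lower by 0.07 to 0.16 on the log2 scale in each pair.

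The distance of the replicate 1 arrays was larger than the difference by exposure for 27 of the 29 genes, and for 93.5% of all probe sets tested. The 2 exceptions were Jon65Ai and Jon25Biii, the genes whose exposed and unexposed pools did not overlap. For 19 of the 29 both replicate 1 arrays lay below the other 4, and for 4 both lay above them, against 57.2% and 28% of all probe sets. A distance of over 2-fold was seen in 10 of the 29 genes (34.5%), against 55.1% of all probe sets. By family these were 2 of 11 Jonah proteases, 3 of 8 trypsins and 5 of 10 carbohydrate enzymes.

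In the Mal-A and trypsin clusters this distance differed between genes. Mal-A2 had 40.4 on exposed 1 and 55.1 on unexposed 1, against 329 and 325 on exposed 2 and 3 and 361 and 311 on unexposed 2 and 3, which is a log2 distance of -2.81 between replicate 1 and the others. Both replicate 1 signals lie below the foreign control medians of their arrays, so the size of this distance is not well set. For Mal-A3 it was -2.49 and for Mal-A8 -1.70, whereas for Mal-A1 it was -0.13 and for Mal-A4 0.32. In the trypsin cluster it was -1.62 for thetaTry, -1.41 for lambdaTry and -0.41 for zetaTry, whereas iotaTry was brighter on replicate 1, as its signals above show. Jon66Cii, chosen after its values were seen, was brighter on replicate 1, with 612 on exposed 1 and 731 on unexposed 1, against 168 and 187 on exposed 2 and 3 and 181 and 204 on unexposed 2 and 3. Its neighbour Jon66Ci had a distance of 1.36 in the same direction.

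**Figure D3:**
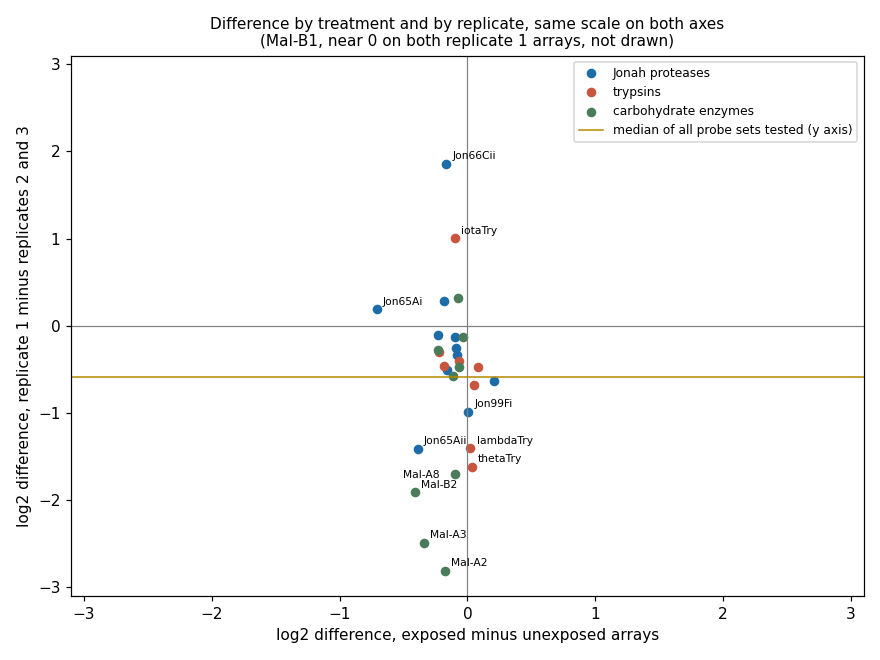
Log2 difference between replicate 1 and replicates 2 and 3 (y axis) against the log2 difference between exposed and unexposed arrays (x axis) for 28 genes, coloured by family, with the same scale on both axes. Mal-B1 is not drawn, as its signals on replicate 1 are near 0. The horizontal coloured line is the median of all probe sets tested (-0.59). Points spread from -2.81 to 1.86 along the y axis and from -0.71 to 0.21 along the x axis.

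On the 4 arrays of replicates 2 and 3 the signals varied little. The highest of these 4 signals was 1.17-fold the lowest in the median of the 29 genes, with a range of 1.04-fold (Jon99Fii) to 1.63-fold (Mal-B1), against a median of 1.24-fold over all probe sets tested. In pair 2 the exposed signal was lower for 25 of the 29 genes (86.2%), against 63.2% of all probe sets, and in pair 3 for 19 of the 29 (65.5%), against 40.1%. In pair 1 it was lower for 18 (62.1%), against 74.4%. Signals in both pairs 2 and 3 were lower in exposed males for 16 of the 29 (55.2%), against 24.8% of all probe sets. These were 7 Jonah proteases, 3 trypsins and 6 carbohydrate enzymes. The median log2 ratio of the 29 was -0.14 in pair 2 and -0.08 in pair 3, against -0.08 and 0.05 over all probe sets, so the distances behind these counts were small.

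Other genes of digestion were described from a list of 45, of which 36 passed the filter. Limma called 0 of the 36 at an adjusted p under 0.05. Of the 36, 4 had an unadjusted p under 0.05 with a ratio below 0 (against 2.12% of all probe sets tested) and 0 with a ratio above 0 (against 0.376%), and the median log2 ratio was -0.11, against -0.09 over all probe sets. Of the 4, 3 were among the 6 lipases. CG6283 had 246, 693 and 847 in exposed pools and 396, 1044 and 1046 in unexposed pools (log2 ratio -0.53, unadjusted p = 0.0150 and adjusted p = 0.905 from limma). CG6271 had 420, 671 and 721 in exposed pools and 634, 933 and 891 in unexposed pools (-0.46, unadjusted p = 0.0191 from limma). CG6277 had 522, 708 and 747 in exposed pools and 745, 935 and 914 in unexposed pools (-0.40, unadjusted p = 0.0265 from limma). For each of them the exposed signal was the lower in 3 of 3 pairs. CG6295, a relative of these lipase genes, had -0.17, -0.10 and -0.07 in pairs 1 to 3.

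Of 13 other proteases, CG8562, a carboxypeptidase gene, had an unadjusted p under 0.05, with 245, 1024 and 1249 in exposed pools and 497, 1479 and 1398 in unexposed pools (-0.57, unadjusted p = 0.0398 from limma). CG8560 had a mean of -0.72, from -1.52 in pair 1, -0.61 in pair 2 and -0.02 in pair 3, and yip7 one of -0.34, from -0.75, -0.25 and 0.00. Without replicate 1 their means were -0.31 and -0.13. For kappaTry, which lies within the trypsin cluster, the pairs were -0.44, -0.06 and -0.25. The 7 lysozyme genes had means between -0.28 (LysS) and -0.01, with LysB at -0.14 and LysD at -0.08. The probe sets of LysB, LysC, LysD and LysE carry the same gene family suffix as that of Jon99Fii. Their signals are likewise uncertain as measures of a single gene. LysS had -0.28, -0.32 and -0.24 in pairs 1 to 3. LysX had a mean of -0.25 from pair 1 (-0.76) alone, since pairs 2 and 3 had 0.06 and -0.04, and without replicate 1 its mean was above 0 (0.0094). Among 10 glycosidases and chitinases, Cht8 had -1.46 (standard error 0.89). Exposed 1 listed it at 0 and unexposed 1 at 17.7, so its ratio in pair 1 (-4.14) is not reliable. Without replicate 1 its mean was -0.12. Cht4 had a mean of -0.28, with -0.95 in pair 1 and 0.06 without replicate 1, and Cht9 had -0.27, with -0.77 in pair 1 and -0.02 without replicate 1. LManVI had -0.24, with pairs of -0.27, 0.18 and -0.63.

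**Figure D4:**
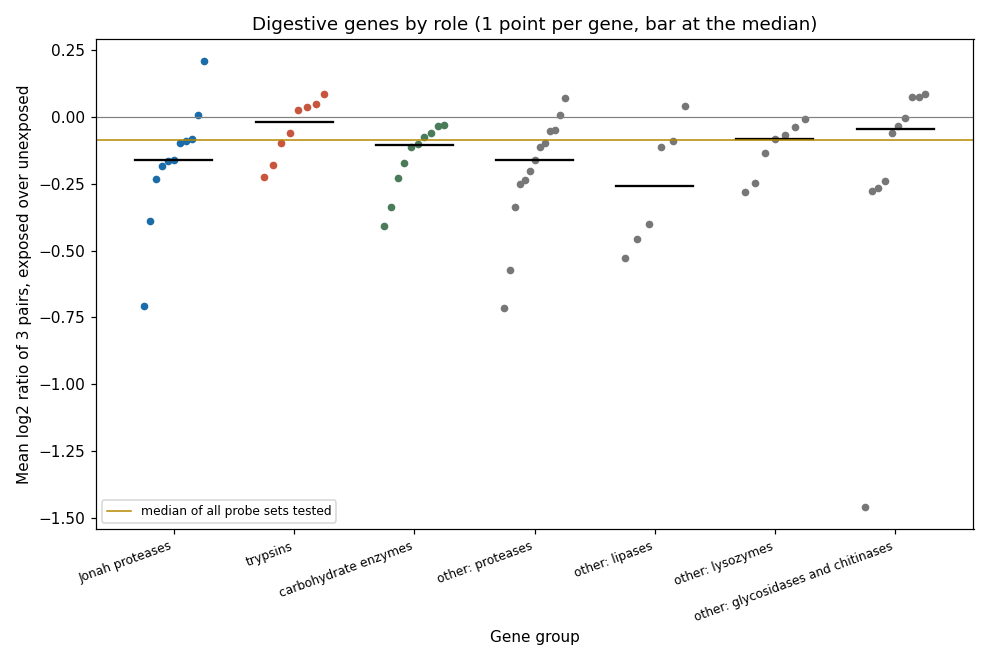
Mean log2 ratio of exposed over unexposed signal over the 3 pairs (y axis) for each gene that passed the signal filter, by gene group, with the 3 families in colour, other digestive genes in grey, a black bar at each group's median and a line at the median of all probe sets tested (-0.09). Group medians range from -0.26 (lipases) to -0.02 (trypsins). Cht8 stands alone at -1.46, a mean set mostly by pair 1, where both signals lay below the foreign control medians.

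The summed signals of markers of the gut and of other tissues overlapped between treatments. The summed signal of 3 midgut enterocyte markers (mex1, nub and Vha100-4) was 3327, 1068 and 1097 in exposed pools and 3148, 979 and 1045 in unexposed pools, so that it was highest on replicate 1 in both treatments and slightly higher in the exposed pool of each pair. Of the 3, mex1 and nub passed the filter. The brightest, nub, given by the brightest of its 3 probe sets, made the sum of pair 2 higher in the exposed pool (641 against 485). In that pair mex1 (376 against 397) and Vha100-4 (51.1 against 97.2) were lower in the exposed pool. The sum of 3 enteroendocrine markers ranged from 311 to 479 in exposed pools and from 362 to 486 in unexposed pools, and that of 3 Malpighian tubule markers from 399 to 1295 in exposed pools and from 349 to 1355 in unexposed pools. The male tissues were present in every pool: the sum of 4 accessory gland markers ranged from 19201 to 21221 in exposed pools and from 19644 to 21919 in unexposed pools, and that of 4 testis markers from 13905 to 18218 in exposed pools and from 14132 to 20092 in unexposed pools. The sum of 4 fat body markers ranged from 3362 to 4684 in exposed pools and from 3513 to 4382 in unexposed pools. Its members went different ways. FASN1, the brightest, was lower in the exposed pool of pairs 2 and 3, and Yp1 was higher in that of each pair. Lsp2 was lower in pairs 1 and 2 and higher in pair 3 (933 exposed against 236 unexposed). The sum of 3 flight muscle markers was 5558, 5187 and 4719 in exposed pools and 4762, 5011 and 4246 in unexposed pools. It was thus higher in the exposed pool of each pair, as were TpnC4 and fln. The third marker, Act88F, went the other way in pair 2 (1504 exposed against 1882 unexposed). The sum of 3 neuronal markers was 218, 300.1 and 281 in exposed pools and 273, 324 and 337 in unexposed pools, and so lower in the exposed pool of each pair. Of these, nSyb, the only one that passed the filter, had a mean log2 ratio of -0.61 (adjusted p = 0.905 from limma), from -1.37 in pair 1, -0.16 in pair 2 and -0.31 in pair 3. Its pair 1 signals (30.2 exposed and 78.2 unexposed) lay below the foreign control medians of their arrays (80.1 and 81). The pair 1 ratio is therefore not reliable, and the mean of pairs 2 and 3 was -0.23. The part of these shifts in the results above was not tested. The neuronal marker elav was listed at 0 on exposed 1 and near 0 on unexposed 1 (6.84). In pair 2 it was the higher in the exposed pool (37.8 against 32.4), unlike the neuronal sum.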

How the data were processed

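The deposited table holds linear intensities, with a single value for each probe set on each array. GCOS 1.2 is named in the submitters' processing notes. The paper also used dChip, with and without mismatch probes, and the sources used here do not say which summary was deposited or how it was scaled. The 44 control probe sets were left out of every test. Between 49 and 364 values per array were 0.

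Signals under 1 were set to 1 before the log2 transform, and no other normalization was applied. The functions lmFit and eBayes of limma 3.58.1 (R 4.3.3) were applied to the 8251 probe sets that reached a signal of 100 on 3 or more arrays, the filter of the methods, with the replicate number as a block, and p-values were adjusted by Benjamini and Hochberg over all of them. They rest on how the exposed-unexposed difference varied between pairs of pools. The function eBayes draws this spread of each gene toward a value shared by all probe sets tested. The standard error of a gene with closely alike pairs is thus set in part by other genes. An example is Jon25Biii (standard deviation of its pairs 0.068, standard error 0.12). The code was tested on simulated arrays. The methods describe parallel collection of both groups and paired tests. Deviations from group means of same-numbered arrays correlated at 0.84, 0.76 and 0.78, and the differences between replicates 2 and 3 of the 2 treatments at -0.33, so for replicates 2 and 3 the pairing has no backing in the signals and follows the methods' paired test alone.

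Gene names come from GEO's platform annotation and were brought up to RefSeq's Release 6 names through Entrez IDs. Of the 13966, 12443 name 1 gene, 327 several and 1196 none. The array design and the gene table use different builds, so no coordinates are given. The genes and lists were chosen with earlier results of these data known. Signals were to be given for up to 4 of the brightest genes of a family and up to 3 with the ratio farthest from 0, and for up to 4 other digestive genes of each role. Genes named beyond this rule are marked as such or belong to a count given in full. Alternatives changed the block, the scaling, the treatment of low signals, the filter and the replicates.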

Additional observations from a re-analysis of the deposited data

How the results depend on the processing

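No Jonah protease, trypsin or carbohydrate enzyme passed at an adjusted p under 0.05 in any setting tried. Over all probe sets, 31 were higher and 175 lower at an unadjusted p under 0.05, with 0 higher and 2 lower at 0.001. With no replicate block these were 0 and 10, with 0 and 1 at 0.001. With quantile normalization they were 146 and 120, with 1 lower at 0.001, and with median centring 135 and 95, with 1 lower at 0.001. With no filter they were 76 and 297, with 1 and 4 at 0.001. With 32 added to every signal, or signals under 50 set to 50, 4 were lower at 0.001. With the replicate 1 arrays as a batch, chosen after seeing the data, they were 75 and 392, with 5 lower at 0.001. Leaving out each replicate in turn gave 14 to 128 higher and 97 to 255 lower, with 0 to 1 higher and 0 to 13 lower at 0.001, and 0 to 2 at an adjusted p under 0.05 (the 2 without replicate 1).

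Jonah proteases lower at an unadjusted p under 0.05 numbered 0, but 1 with median centring, 2 with 32 added, 1 with signals under 50 set to 50, 2 with replicate 1 as a batch and 0 to 1 without a replicate. Jon65Ai accounts for these in part: its log2 ratio was -0.59, -0.69, -0.71 and -0.71 in these settings, and -0.98 without replicate 3. No trypsin or carbohydrate enzyme passed that threshold in any setting. The median log2 ratio of Jonah proteases was -0.075 with quantile normalization and -0.044 with median centring, that of trypsins 0.072 and 0.10, and that of carbohydrate enzymes -0.054 and 0.013. Without a replicate they ranged from -0.18 to -0.13, from -0.068 to 0.036 and from -0.13 to -0.063. Median centring moved the median of all probe sets to 0.03, against -0.09, and that of other digestive enzymes to 0.0060.

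Other digestive enzymes lower at an unadjusted p under 0.05 numbered 4, but 0 with no replicate block and 0 to 4 without a replicate. The causes were not tested. The number of arrays limits the precision, and signals at or below the foreign control medians have no reliable ratio.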

Other observations

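Probe sets that the annotation pairs with both Jon99Cii and Jon99Ciii, neighbours of Jon99Ci that have none of their own, gave signals for the pair together. The first had 6771, 9799 and 9815 in exposed pools and 7974, 9727 and 10797 in unexposed pools, with a mean log2 ratio of -0.12. The second had 7934, 7762 and 8157 in exposed pools and 8665, 8069 and 7993 in unexposed pools, with a mean of -0.05. The third had 6915, 9951 and 10054 in exposed pools and 7845, 10055 and 10356 in unexposed pools, with a mean of -0.08. Groups overlapped for all 3, and their adjusted p from limma lay between 0.908 and 0.947.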
